A study of Mus musculus with 2 samples.

Results

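The proximal olfactory receptor cluster of mouse chromosome 9 comprises the Olfr loci that start between 18.5 and 20.2 Mb of the mm9 build. It holds 36 of the 1112 entries in the table of receptor transcripts (3.24%), namely 35 receptor genes and the pseudogene Olfr856-ps1. Members were taken by position and not by value, although the choice was made with earlier results of these data known. The first is Olfr24 (chromosome 9, 18559136 to 18560077) and the last is Olfr18 (20118336 to 20140538), a span of 1581 kb. RNA came from the olfactory epithelium of adult C57BL/6 mice. Of the 2 samples, both are labelled wild type, although the description of the second reads 3bko, which the sources used here do not explain. Each entry has 1 FPKM value, a level scaled to gene length and to the mapped fragments of the library. Every row of the table names wt as its first sample and 3bko as its second, beside that one value and a status of OK or NOTEST. The table does not say whether the value is that of wt, of 3bko or of both together, so every value below is the authors' single value, with no replicate, no error and no test, and the sequencing depth is unknown.

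Odorant receptors are G protein-coupled receptors with a coding sequence that is usually held in a single exon, preceded by one or more upstream non-coding exons. Each mature olfactory sensory neuron typically expresses 1 receptor gene, and from 1 allele. In whole tissue, the level of a receptor transcript therefore reflects both the number of neurons that chose the receptor and the RNA in each of them, and these cannot be told apart here. Receptor clusters grew by local gene duplication, which also leaves pseudogenes, copies whose coding sequence is damaged.

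The coding starts of the pseudogene and of 5 members are printed first because they show in what way Olfr856-ps1 departs from an intact receptor gene. Olfr39 is its closest relative in the table, Olfr870 belongs to the most similar pair of members, Olfr855 and Olfr857 are the entries on either side of it, and Olfr868 has the highest FPKM among the receptor genes. Sequences are from GENCODE M21 transcripts (GRCm38), 5′ to 3′, with the first codon in capitals.
Olfr856-ps1: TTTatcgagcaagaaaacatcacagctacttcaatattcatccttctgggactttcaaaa
Olfr39: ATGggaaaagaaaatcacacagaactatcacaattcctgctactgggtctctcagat
Olfr870: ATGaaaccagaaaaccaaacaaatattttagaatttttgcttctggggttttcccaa
Olfr855: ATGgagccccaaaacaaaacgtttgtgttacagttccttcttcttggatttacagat
Olfr857: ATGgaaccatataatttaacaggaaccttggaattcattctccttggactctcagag
Olfr868: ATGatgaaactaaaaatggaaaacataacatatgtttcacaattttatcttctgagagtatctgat
All 35 receptor genes began with ATG. The annotated pseudogene sequence began with TTT, and its first in-frame ATG was at position 130.

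The same genes are shown over the stretch that encodes the end of the third transmembrane segment, where receptors carry a tyrosine, aspartate and arginine in a row, a hallmark of the family. The codons aligned with these 3 residues are in capitals.
Olfr856-ps1: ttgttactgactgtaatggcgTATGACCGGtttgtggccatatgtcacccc
Olfr39: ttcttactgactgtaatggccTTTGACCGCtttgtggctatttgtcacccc
Olfr870: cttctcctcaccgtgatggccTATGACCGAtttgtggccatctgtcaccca
Olfr855: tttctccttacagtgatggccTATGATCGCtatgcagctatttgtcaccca
Olfr857: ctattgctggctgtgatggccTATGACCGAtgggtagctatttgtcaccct
Olfr868: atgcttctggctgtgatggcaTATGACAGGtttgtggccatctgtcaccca
The pseudogene kept the tyrosine, aspartate and arginine codons at this place, whereas Olfr39 had a phenylalanine codon in place of the first.

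GENCODE splits Olfr856-ps1 into blocks of 486 and 462 nt separated by 643 nt. In pseudogene models such blocks mark receptor-like sequence and need not be spliced exons. Joined, the blocks gave 948 nt with 1 in-frame stop codon, at position 946, after 315 uninterrupted codons. The other 2 frames held 19 and 17 stop codons. The coding sequences of the 35 receptor genes measured 918 to 996 nt. The join is shown with the second block, or the bases aligned with it, in capitals.
Olfr856-ps1: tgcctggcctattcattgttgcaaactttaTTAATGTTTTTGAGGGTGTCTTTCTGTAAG
Olfr39: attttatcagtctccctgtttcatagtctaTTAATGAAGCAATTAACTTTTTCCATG
Olfr870: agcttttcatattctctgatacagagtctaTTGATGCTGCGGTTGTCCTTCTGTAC
In Olfr39 and Olfr870 the coding sequence ran on across this place. Within the annotated blocks, then, the pseudogene lacked a start codon at its first position and was interrupted by 643 nt, while its joined reading frame had no internal stop codon.

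Olfr856-ps1 (chromosome 9, 19461483 to 19463124, status OK) had the highest value of the cluster, with an FPKM of 15.7. It ranked 27 of 1112 among all entries and 1 of 27 among pseudogene entries (named so in the symbol or typed so by RefSeq), of which 13 (48.1%) reached an FPKM of 1 (52.5% of all entries did). The next pseudogenes were Olfr1372-ps1 at 13.6 and Olfr175-ps1 at 9.43. Within the cluster it was 4.24-fold above the second member, Olfr868, and 19.6-fold above the median of the 35 receptor genes. It accounted for 31.3% of the summed FPKM of the cluster.

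Its neighbours had much lower values. On the proximal side, Olfr853 (MOR154 family) had an FPKM of 0.102, Olfr854 (MOR147) had 0.195 and Olfr855 (MOR148) had 1.07. On the distal side, Olfr857 had 1.05, Olfr58 had 0.744 and Olfr859 had 2.26, all of the MOR146 family. The pseudogene stood 17.5-fold above the median of these 6 entries (0.899) and 6.96-fold above the highest of them. Olfr853 and Olfr854 carry the status NOTEST and the other 4 the status OK. The distance was 71536 bp to Olfr855 and 54148 bp to Olfr857, against a median of 35447 bp between neighbouring members. In the order of GENCODE genes the zinc finger gene Zfp317, the only protein-coding gene in the cluster that is no receptor, lies between Olfr855 and the pseudogene. No annotated gene overlaps the pseudogene.

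The size of this contrast depends on the length behind the value. The locus of Olfr856-ps1 in the table is 1642 bp, as long as its RefSeq span, while 5 of these 6 neighbours have a locus of 918 to 992 bp. FPKM multiplied by locus length gave a ratio of 25.4 to the median of the same 6 neighbours. FPKM multiplied by the length of the annotated GENCODE transcript gave 7.97. The pseudogene was above that median in each case. With transcript length the neighbour Olfr859 came out above the pseudogene, its transcript being 9596 nt against 948 nt. Olfr868 (4233 nt) and Olfr24 (4327 nt), elsewhere in the cluster, did so too. However, the authors' loci of Olfr859, Olfr868 and Olfr24 measure only 930, 3065 and 942 bp. Transcripts longer than the locus cannot be the length behind the value, so these products are not read counts. The ratio of 7.97 has the same limit, since Olfr853, Olfr855, Olfr857 and Olfr859 also have transcripts longer than their locus.

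Reads shared with other genes were checked with 50-mers. All 899 of the 50-mers in the joined pseudogene sequence occurred in no other GENCODE transcript on either strand, and its closest relative in the table, Olfr39, was 68.5% identical. Identity to the 35 receptor genes ranged from 62.6% to 68.5%. Olfr39 itself had an FPKM of 0.542. The 643 nt between its blocks, which lie within the authors' locus, were not tested for shared sequence.

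**Figure D1:**
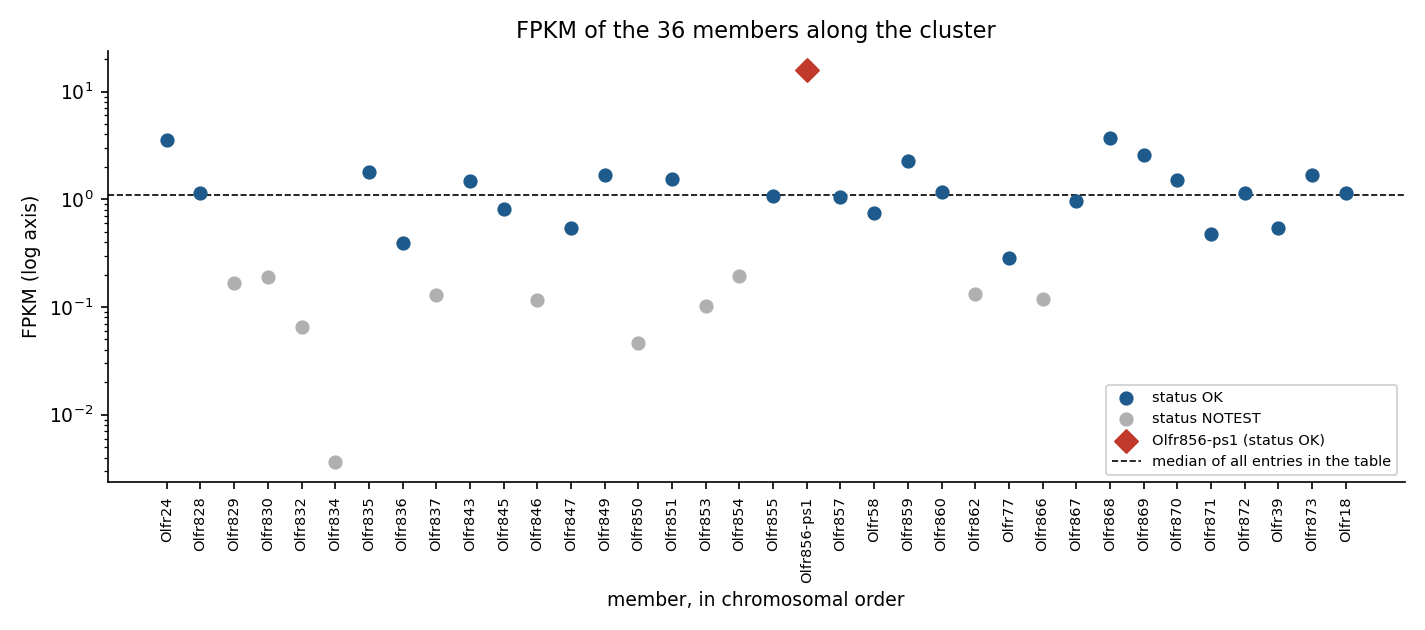
FPKM of each member on a log axis, in chromosomal order, with colour giving the authors' status and a dashed line at the median of the whole table (1.09). The pseudogene Olfr856-ps1 stands at 15.7, above every receptor gene of the cluster, and grey NOTEST entries are mostly on its left.

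Apart from the pseudogene the cluster held receptors of low to moderate level. The median FPKM was 0.804 over the 35 receptor genes. Over the 36 members it was 0.886, with an interquartile range of 0.185 to 1.51, against 1.09 (0.377 to 3.00) over all entries. Among members with at least 80% of their coding 50-mers unique, the median was 0.542. At least 1 FPKM was reached by 17 members (47.2%), or 16 of the 35 receptor genes (45.7%), against 52.5% of all entries. Only Olfr856-ps1 reached an FPKM of 5 (14.3% of all entries did) or of 10 (5.4% of all entries). Values under 0.1 were found for 3 members (8.63% of all entries). The members thus had few high values beside the whole table, as a description and without a test.

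The receptor genes with the highest values were spread over the cluster. After Olfr868 (chromosome 9, 19903070 to 19906134, MOR145), at 3.71, came Olfr24 (MOR132), the first gene of the cluster, at 3.58. They were followed by Olfr869 (19933564 to 19942533, MOR145) at 2.59, Olfr859 (19612764 to 19613693) at 2.26 and Olfr835 (18839569 to 18840504, MOR150) at 1.78. The 5 highest members, with the pseudogene, held 55.4% of the summed FPKM of the cluster. The cluster held 1.70% of the summed FPKM of the table with the pseudogene and 1.18% without it, for 3.24% of the entries.

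At the low end, Olfr834 (chromosome 9, 18792434 to 18793372, MOR153) had an FPKM of 0.0036. Its near-identical neighbour Olfr832 (18749094 to 18750032) had 0.0646, Olfr850 (19281745 to 19282692, MOR147) had 0.0462 and Olfr853 (19341455 to 19342372) had 0.102. The status NOTEST was given to 11 members (30.6%), against 18.3% of all entries. The highest NOTEST member was Olfr854 at 0.195 and the lowest OK member was Olfr77 at 0.283, so no member lay between these values.

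Relative to all other entries, the median of the cluster was lower by 0.28 on the log2(FPKM + 0.1) scale, with medians of -0.03 and 0.25. The difference was -0.50 among class II entries alone and -0.15 with a pseudocount of 1. The log scale with a pseudocount understates differences between low genes. Among 21 genomic clusters of at least 10 entries, the median of this one was the 7th from the lowest. For the other large receptor cluster of chromosome 9, which holds 99 entries, the median FPKM was 0.465, and of its entries 23.2% had an FPKM of 1 or more and 30.3% the status NOTEST. The median of the proximal cluster lay between that of the large cluster and that of the whole table. It was 0.542 when only its members with mostly unique coding sequence were kept. The 0.465 of the large cluster and the median of the whole table were not filtered in this way, so they are not like values. Its share of NOTEST entries was close to that of the large cluster. None of these differences was tested, since genes are not replicates.

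**Figure D2:**
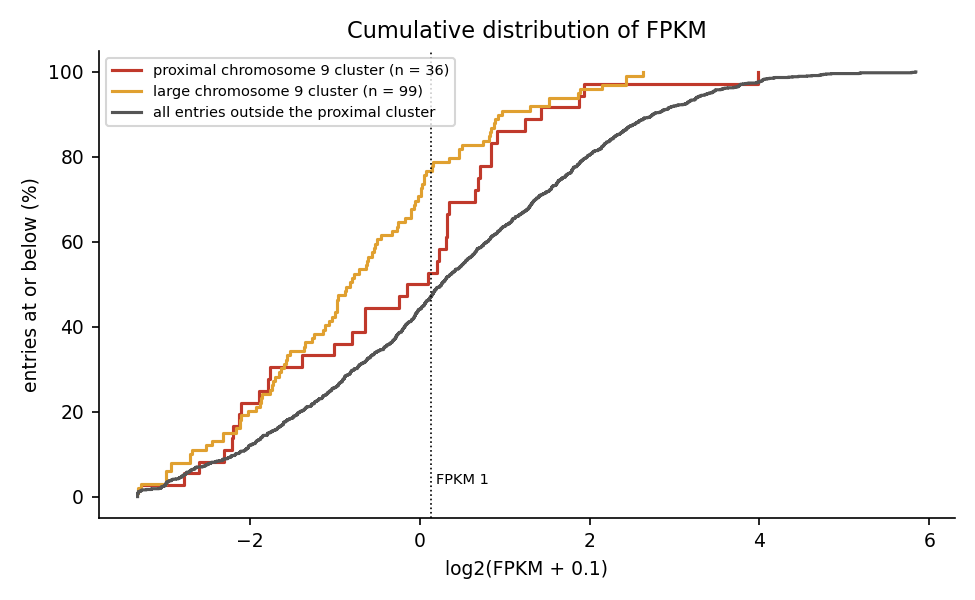
Cumulative share of entries against log2(FPKM + 0.1), for the 36 members, for the 99 entries of the large chromosome 9 cluster and for all entries outside the proximal cluster. The curve of the members lies between the others around an FPKM of 1 (dotted line), and its last step is Olfr856-ps1.

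The 35 receptor genes belong to 15 MOR families, groups of receptors related in sequence and named by number. For 14 of these families, every entry of the table lies in the cluster. Of these families, 10 lie wholly on the proximal side of the pseudogene, 5 lie wholly on its distal side and none has members on both. This is not particular to the pseudogene, since no family spans the places after Olfr24, after Olfr854 or after Olfr862 either. MOR132, MOR144, MOR148, MOR151 and MOR154 have 1 member each and could not lie on both sides. Proximal are MOR132 and the families MOR147 to MOR155, and distal are MOR141 and MOR143 to MOR146. MOR141 has 1 further entry elsewhere. For 35 of the 36 members the most similar entry of the whole table was another member. The exception was Olfr24, whose closest relative was Olfr374 on chromosome 8, at 67.7% identity.

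Levels differed between the 2 sides of the pseudogene. The median FPKM was 0.396 over the 19 proximal genes (interquartile range 0.123 to 1.31) and 1.1 over the 16 distal genes (0.526 to 1.55). A level of at least 1 FPKM was reached by 7 proximal and 9 distal genes (52.5% of all entries). NOTEST entries numbered 9 on the proximal side and 2 on the distal side (18.3% of all entries). The median difference, proximal minus distal, was -1.27 on the log2(FPKM + 0.1) scale, and it was -0.59 with a pseudocount of 1 and -0.65 among members at an FPKM of 0.1 or more. This split was drawn after the values were seen, and it is given as a description.

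MOR147, MOR152, MOR153 and MOR154, all proximal, were low throughout, and are named together for that reason. All 3 members of MOR147 had the status NOTEST, with Olfr829 at 0.169, Olfr850 at 0.0462 and Olfr854 at 0.195. In MOR152, Olfr836 had 0.396, Olfr830 had 0.191 and Olfr837 had 0.130. MOR153 consists of Olfr832 and Olfr834, given above, both NOTEST. The single member of MOR154, Olfr853, had 0.102 and the status NOTEST. None of these 9 genes reached an FPKM of 1 (52.5% of all entries did), which follows from how the families were picked.

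The remaining proximal families had higher medians. Both members of MOR155 were near the same level, with Olfr843 at 1.47 and Olfr851 at 1.53. In MOR150, Olfr835 had 1.78 and Olfr845 had 0.804, and Olfr849, the single member of MOR151, had 1.69. MOR149 ranged from 0.116 in Olfr846 through 0.542 in Olfr847 to 1.15 in Olfr828. The low median of the proximal side thus rested on some of its families, while others lay above the median of all entries.

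On the distal side, MOR145 had 6 members and the highest family median among families of at least 3 members, at 1.42. Olfr868 at 3.71 and Olfr869 at 2.59 led it, followed by Olfr873 at 1.68. Olfr18 and Olfr872 had almost the same value, 1.15 and 1.14, and Olfr866 had 0.118 with the status NOTEST. MOR146 had a median of 1.05 over 5 members, with Olfr859 at 2.26 and Olfr860 at 1.17 highest and Olfr862 at 0.132 lowest. Olfr860 is overlapped on the opposite strand by the annotated antisense gene Gm45699, and unless counting used strand, which the sources do not state, their reads cannot be told apart. MOR143 held Olfr867 at 0.968 and Olfr77 at 0.283. In each of MOR145 and MOR146, then, 1 member lay well below all the others.

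**Figure D3:**
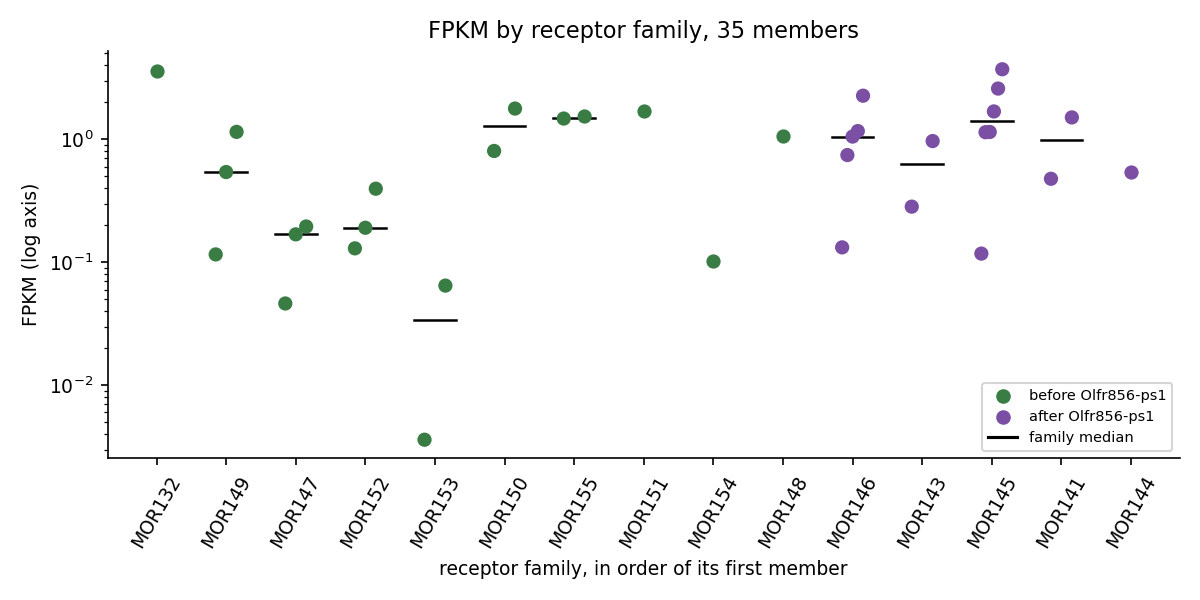
FPKM of the 35 receptor genes on a log axis, grouped by MOR family in order of the family's first gene, with family medians as bars. MOR147, MOR152, MOR153 and MOR154, all proximal to the pseudogene, have every member below an FPKM of 0.4.

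Genes next to each other along the chromosome were about as far apart in level as any pair of members. The median absolute difference in log2(FPKM + 0.1) was 1.48 over the 35 adjacent pairs and 1.57 over all 630 pairs. Pairs of one family were closer, at a median of 1.09 over 39 pairs against 1.61 over 591 pairs from different families. The adjacent pairs, the 630 pairs and the 591 pairs include those with the pseudogene, which was counted as a family of its own. Its log2(FPKM + 0.1) was 3.99, against 1.93 for the next member, Olfr868, and medians without it were not computed. Pairs share members, so these medians are descriptions.

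Even close duplicates differed in FPKM, though at the median by less than other pairs on the log2(FPKM + 0.1) scale. In 18 pairs, among 18 members, the coding sequences were at least 85% identical, and no such pair joined genes from both sides of the pseudogene. The median absolute difference in log2(FPKM + 0.1) was 1.07 over these 18 pairs and 1.60 over the 612 less similar pairs. The 612 pairs include those with the pseudogene. The pseudocount also shrinks differences between low genes: Olfr832 and Olfr834, 17.9-fold apart, lay at -2.60 and -3.27 on this scale. The median fold difference of the 18 pairs was 3.05, with a range from 1.11 to 17.9, and 10 of them differed at least 3-fold. Each of these 10 pairs either included a member with the status NOTEST or joined genes with fewer than 80% of their 50-mers unique. Several of them share 1 such NOTEST member, Olfr862 at 0.132. The most similar pair was Olfr870 (chromosome 9, 19975078 to 19976013) and Olfr871 (20016651 to 20017797), both of MOR141 and 97.5% identical, at an FPKM of 1.51 and 0.478. Olfr58 and Olfr859, 96.9% identical, had 0.744 and 2.26. Olfr869 and Olfr872, 95.4% identical and 3 places apart, had 2.59 and 1.14. Olfr832 and Olfr834, also 95.4% identical, showed the widest fold, but both lay under 0.1.

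These values are uncertain where reads are shared. Of the 36 members, 18 had coding 50-mers that were all unique among GENCODE transcripts and 7 had fewer than 80% unique. The lowest shares were 51.5% for Olfr58, 59.8% for Olfr859, 64.6% for Olfr857 and 71.0% for each of Olfr870 and Olfr871. Each member of MOR146 also shared 50-mers with at least 1 of the pseudogenes Olfr858-ps1, Olfr863-ps1 and Olfr864-ps1, which were not analysed here. How multiply matching reads were handled is not stated, and its part in the differences within pairs was not tested. Olfr832, Olfr834, Olfr846, Olfr847, Olfr850 and Olfr854 each had at least 89.9% of their 50-mers unique. All of these except Olfr847 had the status NOTEST, at an FPKM of 0.195 or less, so their fold differences are uncertain for another reason.

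**Figure D4:**
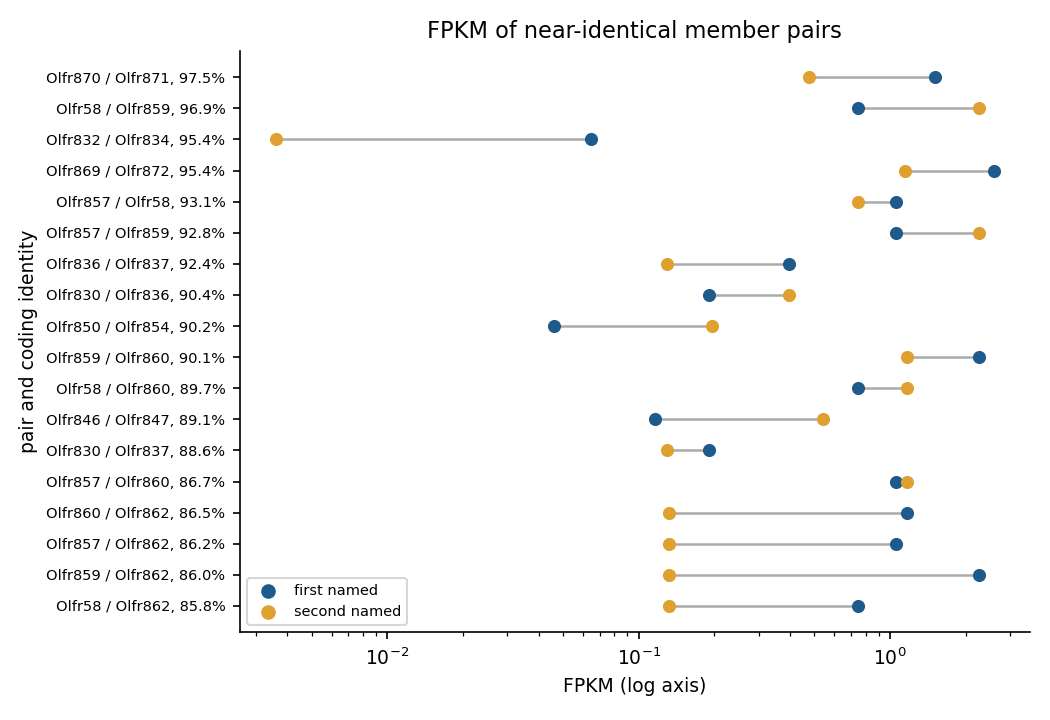
FPKM on a log axis of both genes in each of the 18 member pairs with at least 85% identical coding sequence, ordered by identity. Points of a pair are joined, and 10 of the 18 pairs differ at least 3-fold, including Olfr870 and Olfr871 at 97.5% identity. Of the coding 50-mers of each of these 2 genes, 71.0% are unique.

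The level of a member went with how its transcript is annotated. In GENCODE, 5 receptor genes of the cluster have a transcript of 1 exon, 26 have 2 and 4 have 3. The single-exon genes were Olfr834 at 0.0036, Olfr850 at 0.0462, Olfr866 at 0.118, Olfr854 at 0.195 and Olfr871 at 0.478. All of them lay below an FPKM of 1 (52.5% of all entries reached it), and 4 had the status NOTEST (18.3% of all entries). The median was 0.118 for these, 1.06 for the genes with 2 exons, of which 14 (53.8%, near the share of all entries) reached an FPKM of 1, and 1.14 for those with 3. The 3-exon genes were Olfr868, Olfr843, Olfr845 and Olfr77, from 3.71 down to 0.283, so the groups overlapped.

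Across the 35 receptor genes, Spearman's rho of FPKM was 0.42 with exon number and 0.47 with the annotated length of the 5′ untranslated region. It was 0.28 with the 3′ untranslated length and 0.07 with coding GC content. These are correlations across genes of one set of values, and the annotated features overlap. Olfr834, Olfr850 and Olfr854, all low, have 0 nt of annotated untranslated sequence at either end. Whether the annotation of exons and untranslated regions itself depends on RNA level was not tested. Whether the authors' locus covered the coding sequence alone or more mattered less: the median was 0.886 over 18 members of the first kind and 0.744 over 17 of the second, the pseudogene left out.

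**Figure D5:**
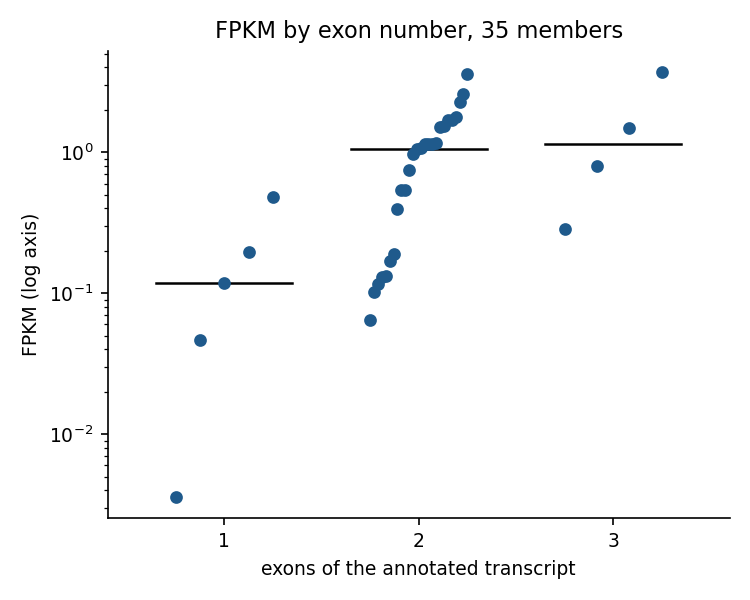
FPKM of the 35 receptor genes on a log axis by the number of exons in the annotated GENCODE transcript, with medians as bars. The 5 single-exon genes all lie below 0.5, while genes with 2 exons run from 0.0646 to 3.58.

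Sequences upstream of the genes were examined in RefSeq windows of GRCm38.p6, which run from 250 bases before an annotated gene start to 50 after it. A window was found for 30 members; there was none for Olfr856-ps1, Olfr834, Olfr847, Olfr857, Olfr873 and Olfr18. In 20 of the 30 the annotated start lies within 50 bases of the start codon, so these windows may not reach the true promoter. Only for Olfr868, Olfr860 and Olfr58 did the start match a GENCODE transcript start (within 50 bases) far from the start codon, beyond 1 kb. The 250 bases upstream of the highest and the lowest of these 3 are printed, with matches to the motifs searched in capitals.
Olfr868 (FPKM 3.71, chr9:20098376-20098625, plus strand): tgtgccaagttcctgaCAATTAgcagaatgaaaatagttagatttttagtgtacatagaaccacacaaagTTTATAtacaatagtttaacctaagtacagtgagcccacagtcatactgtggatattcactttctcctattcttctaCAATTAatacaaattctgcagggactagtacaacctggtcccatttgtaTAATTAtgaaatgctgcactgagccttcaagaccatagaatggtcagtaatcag
Olfr58 (FPKM 0.744, chr9:19780033-19780282, plus strand): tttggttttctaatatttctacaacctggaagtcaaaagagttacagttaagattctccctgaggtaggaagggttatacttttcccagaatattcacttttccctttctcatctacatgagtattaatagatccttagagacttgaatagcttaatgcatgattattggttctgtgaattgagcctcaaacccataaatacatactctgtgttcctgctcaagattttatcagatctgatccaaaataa
The motifs were TAATTA and TAATTG, bound by homeodomain proteins such as Lhx2, TATAAA, the TATA box, and CCCNNGGG, the core of the site of the Olf/Ebf factors, with its longer palindromic form. Both strands were searched, and matches can overlap.

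The homeodomain motif TAATTA was found in 14 of the 30 member windows, against 5.29% of all 32851 windows and 17.6% of 918 windows of other Olfr genes. TATAAA was found in 19 of 30, against 13.6% and 40.3%, and TAATTG in 6 of 30, against 8% and 23.3%. The core CCCNNGGG was found in none of the member windows, against 13.7% of all windows and 3.16% of other Olfr windows, and the longer form, which contains it, is in 0.904% and 0.545%. Base composition moved with these counts: the median GC content was 30.8% in member windows, 35.3% in other Olfr windows and 52.7% in all. Its part in the counts was not tested. The window of Olfr868 held both homeodomain motifs and the TATA box, while the printed bases of Olfr58 held none of the motifs, and 2 windows allow no statement on level.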

How the data were processed

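The deposited table gives 1 FPKM column for 1112 Olfr entries on mm9. Per the submitters' processing notes, the authors used TopHat2, Bowtie2 and Cuffdiff to make these FPKM values. Versions, roles, annotation, read length, strand use and depth: not given in the sources used here, so no interval or detection limit can be given. The 2 samples form 1 group and the table does not say to which of them (wt, 3bko or both) the value belongs. No comparison of groups was therefore possible, and no test was run. The table holds Olfr entries only, so markers of the tissue could not be checked.

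Locus starts count from 0 in the table and 1 was added. MOR families and gene types came from RefSeq, and exon numbers and coding sequences from GENCODE M21 (per gene, the transcript of greatest length among those with a coding sequence), both on GRCm38 and matched by symbol (36 of 36 members in each). Coding sequences were aligned globally with Biopython 1.88 (match 2, mismatch -1, gap opening -5, extension -1, end gaps free), and identity was counted over aligned bases. A 50-mer was unique when it occurred in no other gene's transcript. The functions were tested on simulated data. The log scale is log2(FPKM + 0.1).

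The members and lists were chosen with earlier results of these data known. The rule for full description took the 6 highest and 4 lowest members, the pseudogene with 3 neighbours on each side, and up to 2 of the highest members of each family of 3 or more. Any member could be named with its FPKM. Promoters were to be printed for the highest member, the pseudogene and the lowest member with a window. The pseudogene, which is also the highest member, has no window, and that of Olfr850, the lowest member with one, lies at the start codon. Those of Olfr868 and Olfr58 were printed instead, a choice made after their values were seen.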

Additional observations from a re-analysis of the deposited data

How the results depend on the processing

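Values here have no test, so alternatives could move a value but not a call. The median FPKM of the cluster went from 0.886 to 1.05 among members at FPKM 0.1 or more, 0.804 without the pseudogene, 1.15 among entries with the status OK and 0.542 among members with at least 80% of coding 50-mers unique. Bounds set by gaps under 1 Mb gave the same 36 members. The 17 members at FPKM 1 or more became 33 at a threshold of 0.1 and 1 at 5 or at 10. The difference from other entries stayed negative in each alternative run, at -0.31 with a pseudocount of 0.01, -0.15 with 1, -0.29 among entries at FPKM 0.1 or more, -0.40 without pseudogenes and -0.50 among class II entries. The ratio of Olfr856-ps1 to the median of its neighbours, 17.5 with 3 or 5 on each side, was 14.9 with 1. It was 25.4 for FPKM times locus length and 7.97 for FPKM times transcript length, which for several neighbours exceeds the length of the authors' locus. The 5 highest members held 40.3% without the pseudogene. The proximal minus distal difference, with alternatives chosen after seeing the data, was -1.44 with a pseudocount of 0.01, -0.59 with 1, -1.10 with unique coding sequence, -0.85 for loci of coding sequence alone and -0.65 at FPKM 0.1 or more. The cause of these shifts was not tested. No paired analysis was possible because no column belongs to one sample, and leaving out a replicate was not run for the same reason. Depth is unknown, so the error of low values such as that of Olfr834 could not be given.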

Other observations

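GENCODE M21 annotates 49 Olfr genes from the first to the last member, of which 13 were not analysed here, 11 of them typed as pseudogenes. Members lie on both strands, 21 on the plus and 15 on the minus strand, with medians of 0.804 and 0.968 FPKM. Gaps between neighbouring members ranged from 12721 to 110389 bp, the widest lying after Olfr837. The snRNA genes Gm25914 and Gm25425 overlap Olfr870 and Olfr872 on the opposite strand, as does the processed pseudogene Gm7808 with Olfr77. The unprocessed pseudogene Gm45815 overlaps Olfr18 on the same strand, so their reads could be shared whatever the use of strand.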
